A study of Mus musculus with 12 samples.

Results

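The cell barcodes described here were shallow: each held 500 to 999 UMIs, at least 300 detected genes and at most 10% of its UMIs from mitochondrially encoded (mt-) genes, so that a minimum of 1000 UMIs per cell would have removed it. A UMI, or unique molecular identifier, is a random tag that lets each captured mRNA molecule be counted once. Of the 28426 barcodes deposited for the 12 libraries, 7360 (25.9%) met this rule, and they held 17.9% of all UMIs. Throughout, they were set beside the 12864 near barcodes of the same libraries, which held 1000 to 1500 UMIs and met the same gene and mt- limits. A further 5986 barcodes held more than 1500 UMIs and 2032 held fewer than 500. The rule left out 183 of the 7543 barcodes in the 500 to 999 UMI window, all with fewer than 300 genes. The barcodes were thus selected on their UMI total, gene number and mt- share, and those measures are given only as a description.

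Single-cell 3′ RNA-seq was used to compare how the brain is taken apart before microglia are sorted. Whole brains of male C57BL/6J mice at postnatal day 90 were processed by cold Dounce homogenization (DNC) or by warm enzymatic digestion (ENZ), without (NONE) or with (INHIB) a cocktail of the transcription inhibitors actinomycin D and triptolide and the translation inhibitor anisomycin. This gave 4 preparations, ENZ-INHIB, ENZ-NONE, DNC-INHIB and DNC-NONE, with 3 libraries each and 1 animal per library. Live cells positive for CD45 and CD11b, surface proteins shared by microglia and other myeloid cells, were sorted from every brain, and the mice carried no engineered allele. The libraries were made in 2 batches, each of which held at least 1 library of every preparation.

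Microglia are the resident macrophages of the brain parenchyma. They are recognized by transcripts such as *P2ry12*, *Tmem119* and *Cx3cr1*, and they respond soon to handling by transcribing immediate-early genes such as *Fos* and *Jun*. In droplet sequencing the UMI total of a barcode depends on the RNA content of the cell, on how much of it was captured and on the sequencing depth, and a droplet without a cell can still collect free RNA. Long non-coding RNAs such as *Malat1* and *Neat1* stay in the nucleus, whereas mRNAs for ribosomal proteins and actin are mostly cytoplasmic, so the balance between such transcripts describes which compartments a barcode sampled.

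Every library contributed shallow barcodes, but in very different numbers. In DNC-NONE they numbered 595, 1405 and 1158 in replicates 1, 2 and 3, or 23.4% (95% exact binomial interval 21.8 to 25.1), 55.9% (53.9 to 57.9) and 42.3% (40.4 to 44.1) of the deposited barcodes. In DNC-INHIB they numbered 738, 647 and 434 in replicates 4, 5 and 6, or 29.8%, 23.7% and 15.8%. ENZ-NONE replicates 4, 5 and 6 held 511, 579 and 211, or 22.2%, 28.8% and 10.0%. ENZ-INHIB replicates 1, 2 and 3 held 694, 159 and 229, or 30.5%, 7.86% and 11.7%. DNC-NONE replicate 2 stood highest and ENZ-INHIB replicate 2 lowest, and the ranges of the 4 preparations overlapped. Intervals here cover counting error only.

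**Figure D1:**
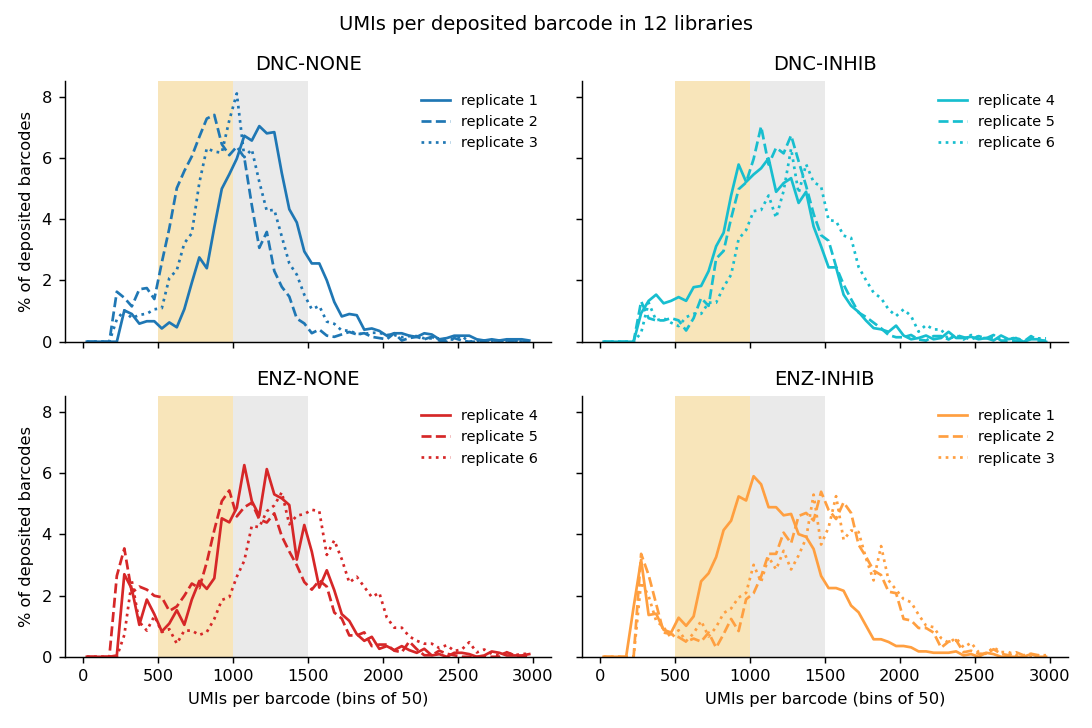
Distribution of UMI totals over the deposited barcodes of each library (x axis, UMIs per barcode; y axis, percent of the deposited barcodes), with the 500 to 999 UMI window shaded yellow and the 1000 to 1500 UMI window shaded grey. The 12 libraries peak at different totals, with medians of 880 in DNC-NONE replicate 2 to 1458 in ENZ-INHIB replicate 3.

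By preparation (mean ± SD, n = 3 each), shallow barcodes made up 16.7% ± 12.1 of ENZ-INHIB, 20.4% ± 9.54 of ENZ-NONE, 23.1% ± 7.03 of DNC-INHIB and 40.5% ± 16.3 of DNC-NONE barcodes. None of the 6 pairs of preparations differed by the exact permutation test (two-sided, smallest p = 0.2, adjusted p = 0.6), and 3 libraries against 3 cannot give a p below 0.1. Over both inhibitor settings, the share was 18.5% in the 6 ENZ libraries and 31.8% in the 6 DNC libraries, a difference of -13.3 percentage points that was not larger than the spread between libraries (two-sided exact permutation test, p = 0.0952; p = 0.05 with permutation within batch). It was -9.20 points in batch 1 (exact p = 0.5) and -17.4 points in batch 2 (exact p = 0.1, the smallest possible). Without DNC-NONE replicate 2 it was -8.48 points (exact p = 0.19), and without ENZ-INHIB replicate 1 it was -15.7 points (exact p = 0.0476). The INHIB and NONE libraries differed by -10.5 points (exact permutation p = 0.216; p = 0.427 within batch).

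These shares moved with the median UMI total per barcode (Pearson r = -0.953 over 12 libraries, not tested). A share below a fixed 1000 UMIs follows that median in part by construction. Among the 6 ENZ libraries the median UMI total per barcode was 1085, 1447 and 1458 with inhibitors and 1169, 1065 and 1396 without. Among the 6 DNC libraries it was 1110, 1168 and 1310 with inhibitors and 1173, 880 and 1009 without. In DNC-NONE replicate 2, 1000 UMIs lay above the median barcode (114% of it), whereas in ENZ-INHIB replicate 3 it was 68.6% of the median. When shallow was instead defined as fewer than 60% of the median of the same library, with the gene minimum kept, the direction turned. This definition was met by 5.06% of ENZ barcodes and 3.09% of DNC barcodes (difference 1.97 points, exact permutation p = 0.00866). INHIB lay 0.781 points above NONE (exact p = 0.368). The gene minimum removed mainly barcodes with few UMIs: in the 500 to 999 UMI window, those removed had a median of 531 UMIs. It thus left less of the relative window in libraries with a low median, such as DNC-NONE replicate 2. The turn in direction cannot be read apart from that selection. The part of the median UMI total in the difference at 1000 UMIs was not tested.

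**Figure D2:**
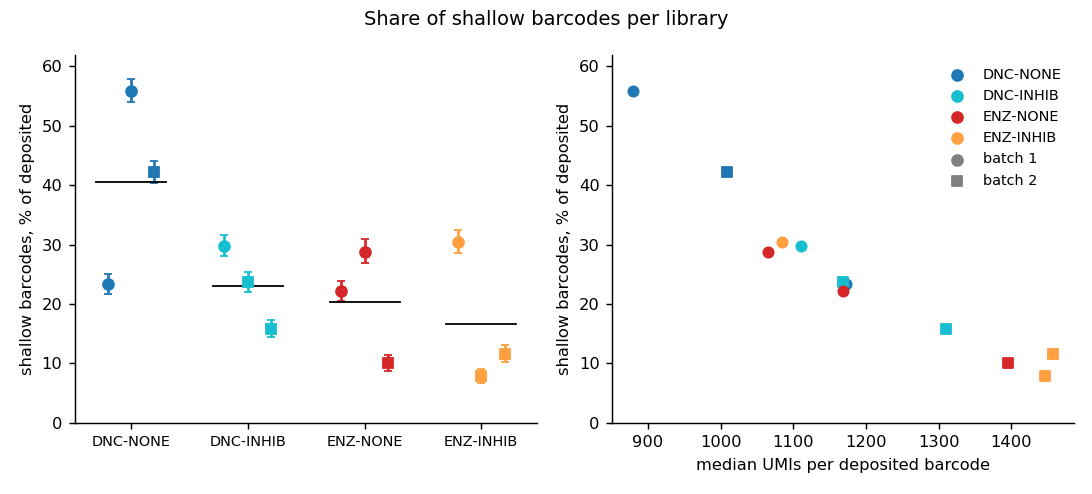
Share of deposited barcodes with 500 to 999 UMIs (y axis, percent) in each of the 12 libraries, by preparation (left, with exact binomial 95% intervals as bars and the mean of the 3 libraries as a line) and against the median UMIs per barcode of the library (right), with circles for batch 1 and squares for batch 2. DNC-NONE replicate 2 (55.9%) and replicate 3 (42.3%) sit highest and ENZ-INHIB replicate 2 (7.86%) lowest.

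Shallow barcodes held a median of 847 UMIs and 532 genes, against 1225 UMIs and 729 genes in near barcodes. When each barcode was thinned at random to 500 UMIs the gene medians were 344 and 347. The median mt- share was 0.933% in shallow and 0.962% in near barcodes. A share above 5% was found in 34 shallow barcodes (0.462%) and 4 near barcodes (0.0311%), and 9 and 6 of these 34 came from ENZ-INHIB replicates 3 and 2, where they made up 3.93% and 3.77% of the shallow barcodes. Of the shallow barcodes, 253 (3.44%) had a barcode sequence that also occurred in another library, as did 478 near barcodes (3.72%).

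Nearly all shallow barcodes carried the transcripts of microglia. After thinning to 500 UMIs, 99.4% ± 0.735 (SD, n = 12 libraries, range 97.6 to 100%) had at least 3 of 18 microglial genes, against 99.6% ± 0.211 of near barcodes (difference -0.273 points, exact sign-flip permutation test over libraries, p = 0.176). With at least 5 genes required, the shares were 98.7% and 99.5% (difference -0.815 points, exact sign-flip p = 0.0259). Only 36 shallow barcodes (0.489%) had fewer than 3 of these genes, and 93.5% had 10 or more. Of the 14 barcodes that carried lymphocyte genes (described below), 5 also had 3 or more microglial genes. The median of the 14 was 2 such genes, against 13 for all shallow barcodes, at median depths of 764.5 and 847 UMIs. Whether those genes came from free RNA or from the cells themselves was not tested. A level of 3 genes was thus also reached by barcodes of another kind, and the median shallow barcode stood above it.

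The 18 microglial genes took 8.32% ± 0.308 (SD, n = 12) of the UMIs of shallow barcodes and 8.17% ± 0.147 of those of near barcodes, and the difference did not pass the test (9 of 12 libraries higher, exact sign-flip adjusted p = 0.110). In libraries, the shallow share ran from 7.90% through a median of 8.25% to 8.81%, and the near share from 7.96% through 8.20% to 8.41%, so the bands overlapped. Restricting both bands to barcodes with at least 500 genes turned the difference to -0.239 points (exact sign-flip adjusted p = 0.0013). That limit removed mainly shallow barcodes. In DNC-NONE replicate 2 the shallow band went from 1405 to 743 barcodes and the near band from 763 to 762. The bands were thus selected unequally, and the turn in sign cannot be read apart from that selection. *P2ry12*, the purinergic receptor used to mark homeostatic microglia, had 7810 CPM (UMIs per 1000000 UMIs of the tested genes, after edgeR's TMM scaling over the shallow and near sums together) in shallow and 7923 CPM in near barcodes, and *Tmem119*, a microglial membrane protein, had 4295 and 4098 CPM. Neither was called by edgeR's quasi-likelihood test with Benjamini-Hochberg adjustment and library as a block (adjusted p = 0.654 and 0.157).

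Across all genes, that test set the summed counts of shallow barcodes against those of near barcodes in the 12 libraries. Of 8826 genes tested, 967 were called at an adjusted p under 0.05 (11.0%), with 466 higher in shallow barcodes (5.28%) and 501 lower (5.68%). The count depended on the barcodes compared: narrower bands (750 to 999 against 1000 to 1200 UMIs) gave 51 genes (29 higher, 22 lower) and a minimum of 500 genes per barcode gave 376 (172 higher, 204 lower). Changes were small: the median absolute log2 change of the called genes was 0.27, and 71 genes reached 1.5-fold (53 higher, 18 lower). The median log2 change over all tested genes was 0.0080. In 177 called genes the direction was shared by all 12 libraries (76 higher, 101 lower). The UMI total per barcode was also what separated the bands, so a gene's level here is its share of the UMIs, not its amount per cell.

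Of the 18 microglial genes, all tested, 4 rose and 1 fell, beside 5.28% and 5.68% of all genes tested, with a median log2 change of 0.06. *Tgfbr1*, a receptor subunit for the TGF-beta signal that microglia depend on, rose by 0.19 on the log2 scale (adjusted p = 0.00014, edgeR) and was higher in 12 of 12 libraries. The chemokine receptor *Cx3cr1* rose by 0.11 and the purinergic receptor *P2ry13* by 0.12, whereas *Fcrls*, an Fc receptor-like gene, fell by 0.14 and was lower in 8 of 12 libraries. *Csf1r* (log2 change 0.06) and *C1qa* (0.07) were not called.

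The clearest difference between the bands was in nuclear-retained RNAs. A list of them (*Malat1*, *Neat1*, *Kcnq1ot1* and *Miat*; *Firre* was not analysed here) took 7.92% ± 0.497 (SD, n = 12) of UMIs in shallow and 6.23% ± 0.394 in near barcodes, and was higher in 12 of 12 libraries (exact sign-flip p = 0.000488, the smallest possible; adjusted p = 0.00195). The lowest, median and highest library had 6.93%, 7.84% and 8.72% in shallow barcodes, against 5.39%, 6.21% and 6.97% in near barcodes. Per barcode this was 65.4 UMIs in shallow and 76.9 in near barcodes, a ratio of 0.850, while the ratio of all UMIs was 0.669. Nuclear-list RNAs were therefore fewer per barcode in absolute number, but less reduced than the total.

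*Malat1* (chromosome 19, 5795690 to 5802672, minus strand, GRCm38), which alone made up nearly all of that list, had 69365, 78822 and 88438 CPM in the lowest, median and highest library of shallow barcodes and 53973, 61818 and 69635 CPM in near barcodes. Its log2 change was 0.36 (SE 0.022, edgeR adjusted p = 3.08e-24), in the same direction in 12 of 12 libraries. *Neat1* (chromosome 19, 5824708 to 5845478, minus strand), the scaffold RNA of paraspeckles, had 105 CPM in shallow and 59.5 CPM in near barcodes (log2 change 0.78, SE 0.094, edgeR adjusted p = 7.29e-10, 11 of 12 libraries). *Kcnq1ot1*, a long antisense transcript of an imprinted locus, rose by 0.28 (adjusted p = 0.0413, edgeR). All 3 nuclear-list genes with enough counts to test rose, beside 5.28% of all genes tested. Of 3 transcripts that resemble ribosomal RNA, *AY036118* (log2 change 0.67) and *Gm26917* (0.54) rose and *Gm42418* (0.29, edgeR adjusted p = 0.0587) was not called. *Gm42418* and *AY036118* overlap, *Malat1*, *Neat1* and *Cx3cr1* overlap other annotated genes, and the strand setting of the counting was not given in the sources used here, so reads of such neighbours may be mixed.

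**Figure D3:**
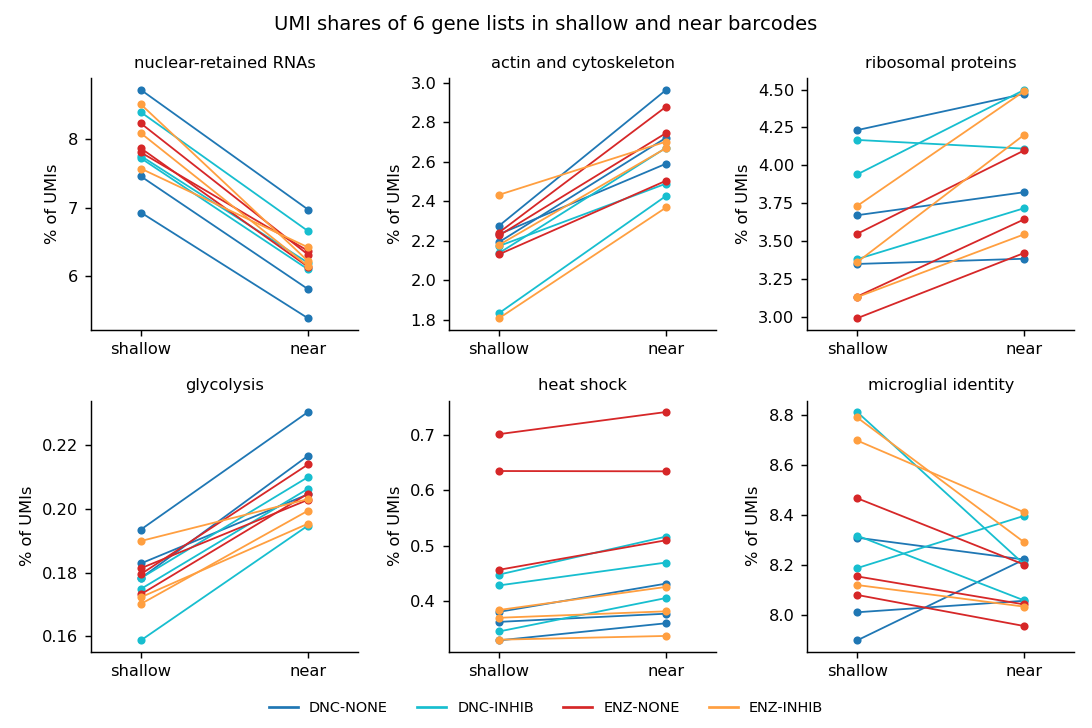
UMI share (y axis, percent) of 6 gene lists in the shallow and near barcodes of each library, with a line joining the bands of 1 library. Nuclear-retained RNAs rise towards shallow barcodes in 12 of 12 libraries, actin and cytoskeleton genes fall in 12 of 12, and the microglial list goes either way.

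Cytoskeletal, glycolytic and ribosomal protein transcripts were lower in shallow barcodes. A list of 14 actin and cytoskeleton genes took 2.15% ± 0.175 (SD, n = 12) of UMIs in shallow and 2.64% ± 0.178 in near barcodes and was lower in 12 of 12 libraries (exact sign-flip adjusted p = 0.00195), with 17.8 and 32.6 UMIs per barcode, a ratio of 0.546. Of its 14 genes 8 fell and none rose, with a median log2 change of -0.16, while 5.68% of all genes tested fell. *Actb*, encoding beta-actin, had 7412, 10567 and 13326 CPM in the lowest, median and highest library of shallow barcodes and 9812, 12520 and 15620 CPM in near barcodes, and was lower in 12 of 12 libraries (log2 change -0.34, SE 0.029, edgeR adjusted p = 3.15e-16). *Tmsb4x*, which binds actin monomers, fell by 0.29 on the log2 scale, and the actin-binding genes *Cfl1* and *Pfn1* by 0.26 and 0.23, each in 12 of 12 libraries.

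Of 11 glycolysis genes, 6 fell and none rose (median log2 change -0.19), while 5.68% of all genes tested fell. *Gapdh* had 177 CPM in shallow and 231 CPM in near barcodes (log2 change -0.42, SE 0.054, edgeR adjusted p = 4.08e-09, lower in 11 of 12 libraries). *Pkm*, which makes pyruvate in the last step of glycolysis, fell by 0.39, and *Aldoa* by 0.31. Of 83 ribosomal protein genes tested, 36 fell and none rose (median -0.12), and their UMI share was 3.55% ± 0.407 in shallow and 3.95% ± 0.417 in near barcodes (SD, n = 12). It was lower in 11 of 12 libraries (exact sign-flip adjusted p = 0.00293), by -0.842 points in ENZ-INHIB replicate 2 and -0.759 in ENZ-INHIB replicate 3, but by only -0.0343 in DNC-NONE replicate 1, and DNC-INHIB replicate 5 was 0.0578 points higher. The tubulin gene *Tubb5* (log2 change -0.31) and *Stmn1* (-0.51), whose product binds tubulin, taken here from a list of proliferation genes of which 3 were tested, also fell.

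Of 16 lysosomal genes, abundant in microglia, 7 rose and 1 fell (median log2 change 0.09), beside 5.28% and 5.68% of all genes tested. As a share of UMIs the list took 11.2% ± 0.629 in shallow and 11.3% ± 0.289 in near barcodes (SD, n = 12) and was lower in 7 and higher in 5 libraries, so the count of called genes and the summed share did not point the same way. *Lgmn*, an asparaginyl endopeptidase, rose by 0.15 in 12 of 12 libraries (SE 0.027, edgeR adjusted p = 2.83e-05), as did the cathepsin gene *Ctsz* by 0.15 in 11 of 12, while the protease inhibitor gene *Cst3* fell by 0.11. The cathepsin gene *Ctsd* was not called (log2 change 0.01). For *Ctss*, *Ctsb* and *Psap*, which rose by 0.09, 0.09 and 0.12, the log2 change was -0.04, -0.03 and -0.0025 when at least 500 genes were required. That limit removed mainly shallow barcodes.

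By the rule for single genes, the largest increases that every library shared were in *Emp3*, *Gm11713*, *Calhm2*, *Cd27*, *Zfp512*, *Hnrnpdl*, *Snhg20* and *Arl10*, with log2 changes of 0.43 to 0.62. *Emp3* (chromosome 7, 45918023 to 45921404, minus strand), an epithelial membrane protein family gene, had 61.5, 95.8 and 163 CPM in the lowest, median and highest library of shallow barcodes and 38.7, 64.5 and 82.5 CPM in near barcodes (log2 change 0.62, SE 0.087, edgeR adjusted p = 7.18e-08). *Cd27*, a receptor of the tumour necrosis factor receptor family, had 212 CPM in shallow and 152 CPM in near barcodes (log2 change 0.47, SE 0.058, edgeR adjusted p = 1.71e-09), and overlaps *Vamp1*. *Hnrnpdl* encodes an RNA-binding protein, *Snhg20* is a non-coding RNA that hosts a small nucleolar RNA, and *Gm11713* is annotated as antisense to *Pitpnc1*.

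The largest decreases shared by every library were in *Cdk2ap1*, *Crybb1*, *Npl*, *Hint2*, *Glrx5*, *Ak1*, *Ldhb* and *Asna1*, with log2 changes of -0.49 to -0.37. *Crybb1* (chromosome 5, 112255815 to 112269585, plus strand), a beta-crystallin gene that microglia express, had 258, 357 and 414 CPM in the lowest, median and highest library of shallow barcodes and 423, 471 and 575 CPM in near barcodes, so the bands did not overlap (log2 change -0.45, SE 0.041, edgeR adjusted p = 1.50e-14). *Ldhb*, a lactate dehydrogenase subunit, had 518 and 675 CPM (log2 change -0.39, SE 0.044, edgeR adjusted p = 8.23e-11). *Hint2* and *Glrx5* encode mitochondrial proteins, and *Ak1* encodes an adenylate kinase. *Malat1*, *Neat1*, *Emp3*, *Actb*, *Tmsb4x*, *Crybb1* and *Ldhb* were called in the same direction under all 20 alternative settings tried.

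**Figure D4:**
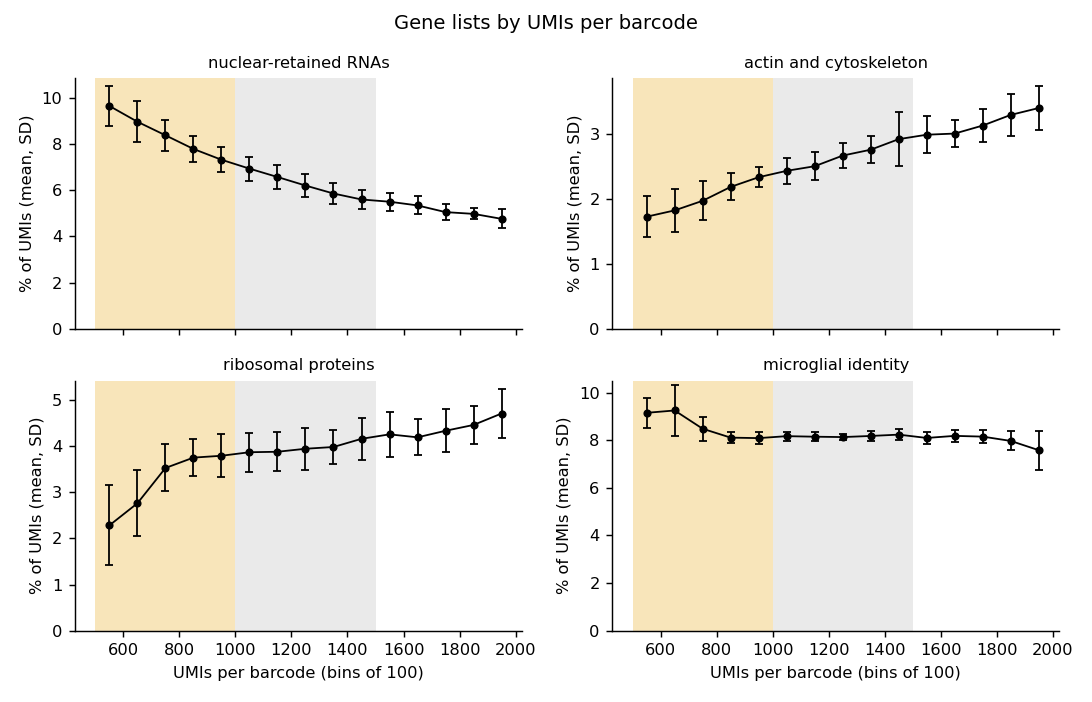
Mean UMI share over libraries (y axis, percent, with SD) of gene lists by UMI total of the barcode (x axis, bins of 100 UMIs with at least 20 barcodes per library). Nuclear-retained RNAs decline from 9.66% in the bin that starts at 500 UMIs to 4.77% in the bin that starts at 1900 UMIs, with no step at 1000.

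These differences followed the UMI total without a step at 1000. In bins of 100 UMIs with at least 20 barcodes per library, the mean nuclear-list share was 9.66% (9 libraries) in the bin starting at 500 UMIs, 8.39% at 700, 7.33% at 900, 6.94% at 1000, 6.21% at 1200 and 4.77% (7 libraries) at 1900. Over the same first and last bins, the actin list went from 1.73% to 3.40% and ribosomal protein genes from 2.28% to 4.70%. The microglial list had 9.15%, 9.25% and 8.48% in the 3 lowest bins, between 8.09% and 8.23% in the bins starting at 800 to 1700 UMIs, 7.97% (10 libraries) at 1800 and 7.58% (7 libraries) at 1900. Within 50 UMIs inside the upper limit, 1307 barcodes had a nuclear-list share of 7.12%, an actin-list share of 2.34% and a median of 608 genes. Within 50 UMIs outside it, 1443 barcodes had 6.89%, 2.43% and 633 genes. Within 50 UMIs inside the lower limit, 185 barcodes had a nuclear-list share of 9.61%.

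Mitochondrial transcripts behaved differently between libraries. Their UMI share in shallow against near barcodes was 1.43% against 0.995% in ENZ-INHIB replicate 2, 1.39% against 0.986% in ENZ-INHIB replicate 3 and 1.19% against 0.930% in ENZ-NONE replicate 6, the libraries with the smallest shares of shallow barcodes. In DNC-NONE replicates 1, 2 and 3 it was 1.10% against 1.11%, 0.960% against 1.01% and 0.894% against 0.942%, lower in shallow barcodes each time. Since the mt- share entered the rule, no test is given. In those 3 libraries with the highest mt- excess the microglial-list share was higher in shallow barcodes, by 0.287, 0.499 and 0.266 points. It was higher in 9 of all 12 libraries.

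Cells other than microglia were rare in the shallow band, and 1 kind was counted in the shallow barcodes of 5 of 6 ENZ and 0 of 6 DNC libraries. A barcode was set apart as lymphocyte-list when it had at least 2 of 12 T, B and natural killer (NK) cell genes after thinning. There were 14 (0.190%) among shallow and 8 (0.0622%) among near barcodes. The 14 lay in ENZ-NONE replicates 4 (1) and 6 (3) and ENZ-INHIB replicates 1 (6), 2 (1) and 3 (3), and none lay in the shallow barcodes of ENZ-NONE replicate 5 or of the 6 DNC libraries. In a single DNC library 0 allows a share of up to 0.214 to 0.691%, above the 0.196% of ENZ-NONE replicate 4, and the difference in this share between ENZ and DNC was not tested. Of the 8 near barcodes 7 came from ENZ libraries and 1 from DNC-INHIB replicate 4, and a further DNC barcode had fewer than 500 UMIs. Another 338 shallow barcodes were 1 gene short of the limit. All 14 carried *Nkg7* and *Ccl5*, 13 *Gzma*, 12 *Ncr1* and 10 *Klrb1c*, genes of the cytotoxic granule, chemokine and receptor programme of NK cells. Except for *Ccl5*, these were among the 12 genes that set the barcodes apart, so their presence partly follows from that choice. Of the T and B cell genes of the list, *Trbc2*, a T cell receptor gene, was detected in 2 of the 14, and *Cd3e*, *Cd3d*, *Cd3g*, *Trac*, *Cd79a*, *Cd79b* and *Ms4a1* in 0. *Csf1r* was detected in 0 of the 14, and *P2ry12* in 4.

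*Gzma* (chromosome 13, 113093825 to 113100981, minus strand), which encodes granzyme A, had 177 UMIs in the shallow barcodes of the ENZ libraries and 0 in those of the DNC libraries, at least 124-fold higher per UMI with a floor of 3 counts over the DNC group. By library its level, with TMM scaling over the 12 shallow sums alone, was 21.6, 0 and 279.5 CPM in ENZ-NONE replicates 4, 5 and 6 and 98.2, 198 and 251 CPM in ENZ-INHIB replicates 1, 2 and 3. *Nkg7* had 110 UMIs against 0, at least 77.0-fold higher by the same floor. Every one of these *Gzma* and *Nkg7* UMIs came from the 14 lymphocyte-list barcodes, which both genes had helped to set apart. *Ccl5*, a chemokine, had 319 against 23 UMIs. The same genes were among the largest increases of shallow over near barcodes (*Gzma* log2 change 2.73, *Nkg7* 2.77, *Ncr1* 3.28), each higher in 5 of 12 libraries. Fewer cells of a type and less RNA per cell cannot be told apart in these summed levels.

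Among other lists, at least 3 border macrophage genes after thinning marked 52 shallow (0.707%) and 66 near barcodes (0.513%), with the highest shares of shallow barcodes in ENZ-INHIB replicate 2 (5 barcodes, 3.14%), ENZ-NONE replicate 6 (4, 1.90%) and DNC-NONE replicate 2 (20, 1.42%). Neutrophil-list barcodes made up 0.217% of shallow (16) and 0.0933% of near barcodes (12). Monocyte-list barcodes made up 0.285% (21) and 0.210% (27), and MHC class II-list barcodes 1.02% (75) and 0.917% (118). These shares were not tested. None of 6 border macrophage genes and none of 6 MHC class II genes was called between the bands. With 11.0% of all genes tested called, such short lists could hold no called gene at the same share. The neutrophil granule genes *Ngp*, *Camp*, *Ltf* and *Lcn2* were lower in shallow barcodes (log2 changes -1.45, -1.51, -1.36 and -1.41), with *Ngp* lower in 7 and higher in 1 of 12 libraries. These 4 genes were close to the floor in the median library of near barcodes (3.31, 0.332, 0 and 0.395 CPM). The highest library had 483, 323, 84.3 and 54.8 CPM. Astrocyte and oligodendrocyte genes together took 0.0351% of UMIs in shallow and 0.0357% in near barcodes (exact sign-flip adjusted p = 0.710), and haemoglobin genes 0.0005% and 0.0001% (adjusted p = 0.0938, exact sign-flip). Neuronal, choroid plexus and mural cell genes were too low to test.

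Transcripts of the handling response were present in shallow barcodes at about the level of near barcodes. A list of 19 genes that the study scored as an activation signature of all brain cells took 0.298% of UMIs in shallow and 0.304% in near barcodes, higher in 6 and lower in 6 libraries (exact sign-flip adjusted p = 0.786). Of its 17 genes tested, 1 was called, a share close to the 5.68% of all genes tested that were called lower. This was *Fos*, which fell by 0.34 on the log2 scale (edgeR adjusted p = 0.00295). That call rested on ENZ-NONE, where *Fos* had 231, 339 and 1163 CPM in shallow and 351, 353 and 1494 CPM in near barcodes, and it was lost without ENZ-NONE replicate 4 or 6. *Jun* (log2 change 0.03), *Dusp1* (-0.01), *Hspa1a* (0.13), *Ccl3* (0.09) and *Ccl4* (-0.04) were not called. A heat shock list took 0.431% in shallow and 0.466% in near barcodes, lower in 11 of 12 libraries (exact sign-flip adjusted p = 0.0026). Of its 10 genes only *Hspa8*, the constitutive chaperone, was called, with a log2 change of -0.18 in 12 of 12 libraries. Over all genes tested, 11.0% were called in either direction.

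The preparations differed in this response within the shallow barcodes. The 19-gene list took 0.606%, 0.594% and 1.14% of UMIs in ENZ-NONE replicates 4, 5 and 6. In the 9 other libraries it took 0.0918 to 0.132%, except for 0.331% in DNC-NONE replicate 1. The means were 0.781% and 0.138%, and the groups did not overlap (difference 0.643 points, p = 0.00909 by a two-sided exact permutation test, the smallest that 3 libraries against 9 can give; p = 0.0222 within batch). The change from near to shallow barcodes did not differ in ENZ-NONE by this test (difference -0.0530 points, exact p = 0.155). It was -0.0829 points without ENZ-NONE replicate 5 (exact p = 0.0364), -0.00945 points without ENZ-NONE replicate 6, and -0.119 points (exact p = 0.00909) with at least 500 genes per barcode, a limit that removed mainly shallow barcodes.

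Between preparations, edgeR was run on the summed counts of the shallow barcodes alone, with 6895 genes tested. CPM in these comparisons were scaled over the 12 shallow sums alone, so they differ slightly from the CPM set beside near barcodes. ENZ-NONE differed from DNC-NONE in 39 genes (0.566% of those tested), of which 31 (0.450%) were higher and 8 lower. It differed from DNC-INHIB in 43 genes (0.624%), 33 higher (0.479%) and 10 lower, and from ENZ-INHIB in 24 (0.348%), 22 higher (0.319%) and 2 lower. These comparisons share the ENZ-NONE libraries. ENZ-INHIB differed from DNC-INHIB in 8 genes (0.116%), 7 higher and 1 lower (0.0145%), and from DNC-NONE in 4 (0.0580%), all higher. The latter count was 7 without DNC-NONE replicate 2, 14 without ENZ-INHIB replicate 1 and 2 without ENZ-INHIB replicate 3, and the count of 43 fell to 26, 28 and 27 without DNC-INHIB replicates 4, 5 and 6. In each comparison of an ENZ with a DNC preparation, 2 of the higher genes belonged to the lymphocyte list. Lymphocyte-list barcodes numbered only 10 of 1082 shallow barcodes in ENZ-INHIB and 4 of 1301 in ENZ-NONE. DNC-NONE and DNC-INHIB differed in 0 genes by edgeR and 0 by DESeq2, with 262 genes at an unadjusted p under 0.05 in edgeR. Of 12 genes of the 19-gene list that were tested, 10 were higher in ENZ-NONE than in ENZ-INHIB (median log2 difference 2.99, beside -0.0077 over all tested genes), 11 than in DNC-INHIB (2.82 beside 0.0040) and 10 than in DNC-NONE (2.33 beside 0.0001). A list of 25 genes that the study chose on these very libraries, and so no independent evidence, had 17, 19 and 19 of 21 tested genes higher in the same order.

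**Figure D5:**
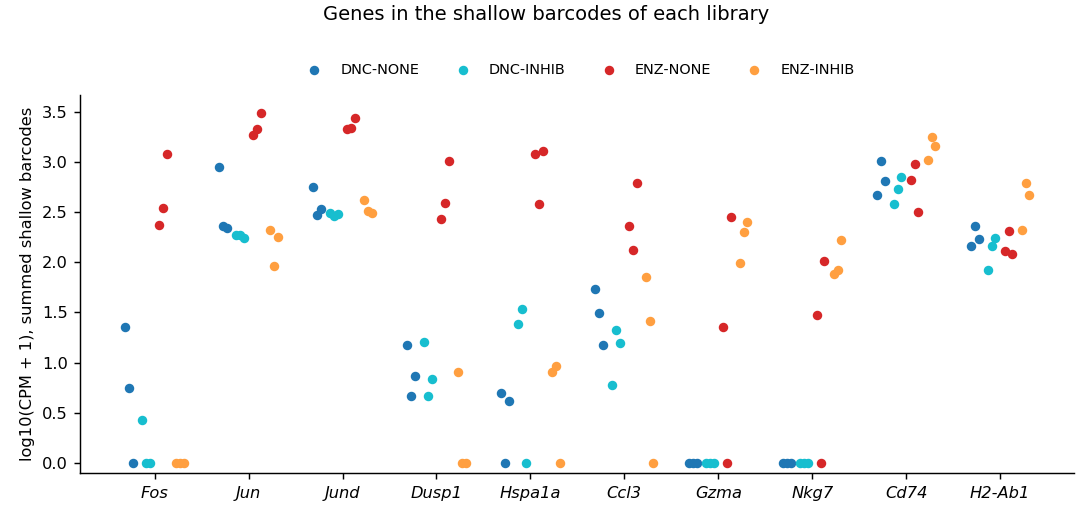
Level in the summed shallow barcodes of each library (y axis, log10 of CPM + 1, scaled over the shallow sums alone) of 10 genes, coloured by preparation. Immediate-early, heat shock and chemokine genes are highest in the 3 ENZ-NONE libraries, *Gzma* and *Nkg7* are detected in 5 of 6 ENZ and in no DNC library, and *Cd74* and *H2-Ab1* are highest in ENZ-INHIB replicates 2 and 3.

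Among immediate-early genes, *Jund*, an AP-1 subunit, had 2144, 2174 and 2706 CPM in the shallow barcodes of ENZ-NONE replicates 4, 5 and 6, and between 287 and 566 CPM in the 9 other libraries. Against DNC-NONE its log2 difference was 2.57 (edgeR adjusted p = 1.57e-13). *Fos* had 233, 342 and 1194 CPM in ENZ-NONE, at most 21.8 CPM elsewhere, and 0 in ENZ-INHIB. *Jun* had 1834, 2122 and 3075 CPM in ENZ-NONE and 898 CPM in DNC-NONE replicate 1, with 90.9 to 230 CPM in the remaining 8 libraries. *Dusp1*, a phosphatase that switches off MAP kinases, averaged 562 CPM in ENZ-NONE and 2.34 CPM in ENZ-INHIB, 8.18 CPM in DNC-INHIB and 7.96 CPM in DNC-NONE. In each of these genes the ENZ-NONE libraries lay above all others.

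Of 10 heat shock genes, 3 were higher in ENZ-NONE than in ENZ-INHIB, 3 than in DNC-INHIB and 4 than in DNC-NONE. The shares of all genes tested were 0.319%, 0.479% and 0.450% in the same order. *Hspa1a*, an inducible chaperone whose near-identical copy *Hspa1b* may share its reads, had 1194, 377 and 1271 CPM in ENZ-NONE and at most 33.1 CPM elsewhere. *Hsp90aa1* averaged 460 CPM in ENZ-NONE, 144 CPM in ENZ-INHIB, 122 CPM in DNC-INHIB and 106 CPM in DNC-NONE. The chemokine gene *Ccl3* averaged 324 CPM in ENZ-NONE against 13.3 to 32.4 CPM in the other preparations, with values of 230, 133 and 610 CPM in replicates 4, 5 and 6. Fewer genes were lower. *Mir142hg*, the host transcript of a haematopoietic microRNA, had 0 UMIs in the 3 ENZ-NONE libraries and 13.9 to 31.2 CPM in the 6 DNC libraries (edgeR adjusted p = 0.0013 against DNC-NONE). *Rmi2* averaged 14.1 CPM in ENZ-NONE, 24.2 in ENZ-INHIB, 43.7 in DNC-INHIB and 56.9 in DNC-NONE. It was called against both DNC preparations.

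In ENZ-INHIB, 3 of 6 MHC class II genes were higher than in DNC-INHIB, against 0.102% of all genes tested. Of markers of border macrophages, the macrophages of the meninges and vessels, none of the 5 tested of 9 was called, and their median log2 difference was 1.501. Medians of the monocyte and neutrophil lists (2 genes tested each) were also higher, at 1.118 and 5.023, with 0 called. That of 2 oligodendrocyte genes was lower (-0.164). The border macrophage list took 0.0205%, 0.0374% and 0.0263% of UMIs in ENZ-INHIB replicates 1, 2 and 3 and 0.0057%, 0.0159% and 0.0049% in DNC-INHIB replicates 4, 5 and 6. Border macrophage-list barcodes numbered 15 of 1082 and 6 of 1819 shallow barcodes, and their part in the differences was not tested. *Cd74*, the invariant chain of MHC class II, had 1040, 1760 and 1452 CPM in ENZ-INHIB replicates 1, 2 and 3 and 383, 533 and 713 CPM in DNC-INHIB replicates 4, 5 and 6 (log2 difference 1.37, edgeR adjusted p = 0.00453). *H2-Ab1* had 210, 620 and 467 CPM against 83.5, 145 and 172 CPM (log2 difference 1.56, edgeR adjusted p = 0.00444), and the lipid carrier gene *Apoe* 2169, 5263 and 3911 CPM against 1248, 1286 and 2433 CPM (1.18, adjusted p = 0.0335). ENZ-INHIB replicates 2 and 3 had only 159 and 229 shallow barcodes, and DESeq2 called 0 genes in this comparison. The edgeR count of 8 fell to 4 without ENZ-INHIB replicate 2, to 4 without replicate 3, and to 2 and 4 without DNC-INHIB replicates 4 and 5. *mt-Co1* averaged 1914 CPM in ENZ-INHIB and 1175 CPM in DNC-NONE.

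Whether the shallow-to-near change itself differed between ENZ-NONE and the other preparations was tested with an interaction term, which called 1 of 8826 genes (0.0113%). *Klf2* (chromosome 8, 72319033 to 72321656, plus strand), a Krüppel-like transcription factor, was higher in shallow than in near barcodes in 9 of 9 libraries outside ENZ-NONE, at 179, 83.1 and 93.6 against 81.1, 39.5 and 54.1 CPM in replicates 1 to 3 of DNC-NONE. The same values were 99.1, 150 and 115 against 50.5, 63.4 and 92.1 CPM for DNC-INHIB. For ENZ-INHIB they were 49.9, 71.4 and 107 against 22.1, 52.9 and 51.9 CPM. In ENZ-NONE it had 222, 254 and 1113 CPM in shallow and 228, 297 and 1044 CPM in near barcodes. Its change was lower in ENZ-NONE by a log2 difference of -0.98 (edgeR adjusted p = 5.47e-06). At an unadjusted p under 0.05 there were 406 genes.

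*Apoe* changed between the bands in a way that depended on the library. Its level in shallow against near barcodes was 5056 against 1711 CPM in ENZ-INHIB replicate 2, 3856 against 1681 CPM in replicate 3 and 2951 against 1639 CPM in ENZ-NONE replicate 6, but 2456 against 3299 CPM in DNC-NONE replicate 2 and 1569 against 2038 CPM in DNC-NONE replicate 3. Over 12 libraries its log2 change was 0.42 (edgeR adjusted p = 3.24e-06). With at least 500 genes per barcode, a limit that removed mainly shallow barcodes, the *Apoe* change was -0.38, and called. The border macrophage list took 0.0374% against 0.0126% of UMIs, 0.0263% against 0.0102% and 0.0293% against 0.0120% in the first 3 of these libraries, and 0.0275% against 0.0278% and 0.0066% against 0.0120% in the 2 DNC-NONE libraries, and its part in the *Apoe* change was not tested. Among interferon-response genes 3 of 10 rose, beside 5.28% of all genes tested, of which *Ifitm3* had 80.4 CPM in shallow and 47.9 CPM in near barcodes (log2 change 0.52, edgeR adjusted p = 0.0011). *Cdkn1a*, a cell-cycle inhibitor induced by p53, rose by 0.63 (adjusted p = 0.00158, edgeR) and was the only 1 of 9 tested genes of a p53, apoptosis and integrated stress list to do so, a share close to that of all genes.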

How the data were processed

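Single-cell 3′ RNA-seq of sorted brain myeloid cells was measured in 12 libraries, 3 per preparation and 1 mouse per library. Per the labels and the methods of the study, the authors aligned reads to mm10 and made UMI counts per gene and barcode with Cell Ranger 3.0.0. The deposited matrices hold whole-number counts for 31053 genes in 1965 to 2745 barcodes per library, with 2118143 to 3654465 UMIs per library and a lowest barcode total of 207 UMIs. Per the methods of the study, low-quality cells and doublets found by manual annotation were removed during its analysis, and such cells remain in the raw data it deposited. Its filter values and the strand setting were not given in the sources used here. No doublet caller was run.

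Counts of shallow (500 to 999 UMIs) and near (1000 to 1500 UMIs) barcodes were summed per library, and libraries were the replicates. Genes were tested with edgeR 4.0.16 in R 4.3.3 (filterByExpr, TMM, quasi-likelihood F test, Benjamini-Hochberg adjusted p under 0.05), with library as a block between the bands and over all 4 groups between preparations. UMI shares of 8 gene lists were compared by an exact sign-flip test over the 12 libraries (4096 flips), and shares between groups by exact permutation, all two-sided. Scripts were tested on simulated data. Named genes were the 8 per direction with the largest change among genes called with the same sign in every library and a mean of at least 50 CPM, the 5 per direction for each pair of preparations, genes of the lists, and genes of the interaction. A gene of the microglial and lysosomal lists is counted with them and not reported by name here. The few further genes of the lymphocyte-list barcodes were chosen after their values were seen. The members and lists were chosen with earlier results of these data known. Replicates of a group differed by more than sampling noise (chi-square per degree of freedom 1.26 to 2.66), so none was counted as a duplicate. Positions used GENCODE annotation of GRCm38. No sequence carries these findings, and none is shown.

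Alternatives were DESeq2 1.42.0, RLE scaling, no count filter, thinning, narrower bands (750 to 1200 UMIs), at least 500 genes, at most 5% mt- UMIs, microglial-list barcodes only, batch as a covariate, a replicate block, and each library left out. The minimum of 500 genes removed mainly shallow barcodes, so differences between the bands under it compare unequally selected barcodes. Bands relative to the library median (50 to 80% and 80 to 120%), and microglial-list barcodes and the 6 libraries of a pair alone for the preparations, were added after seeing the data.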

Additional observations from a re-analysis of the deposited data

Results flagged for a closer look

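The share of UMIs from the 19-gene stress list in shallow barcodes was 0.331% in DNC-NONE replicate 1, apart from the 8 other libraries outside ENZ-NONE (gap over range 0.832, critical value 0.493). In the same library the list rose from near to shallow barcodes by 0.0539 points, again apart from the others (gap over range 0.552). About 1 in 20 groups would be picked out in this way by chance.

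*Klf2* differed between ENZ-NONE and the other preparations in its change from near to shallow barcodes, with a log2 difference of -0.98 by edgeR's interaction test (adjusted p = 5.47e-06). Over the 4 preparations together, edgeR called 23 genes whose change from near to shallow barcodes differed, among them *Apoe*, *Ngp*, *Camp*, *S100a8*, *Ccl4*, *Cd74*, *Lyz2*, *H2-Aa*, *Nkg7*, *Ccl5* and *Klf2*.

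The 19-gene list was lower in shallow than in near barcodes in the 3 ENZ-INHIB libraries (mean -0.00665 points) and higher in the 3 DNC-NONE libraries. This difference was not tested. Astrocyte and oligodendrocyte genes were lower in shallow barcodes in the 3 ENZ-NONE libraries (mean -0.00285 points) and higher in the 3 ENZ-INHIB libraries (mean 0.00373 points), while the 3 DNC-INHIB libraries were lower. These differences were not tested.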

How the results depend on the processing

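With 3 libraries a group, the exact test of a pair of preparations cannot pass 0.05, shallow barcodes are few in ENZ-INHIB replicates 2 and 3, and levels are shares of UMIs. Nuclear, actin, ribosomal and heat shock list differences kept their direction and their call under the alternatives tried. Of the values for single genes under alternatives, 2960 kept direction and call, 502 lost the call, 28 gained it, 42 uncalled ones moved by more than their SE and 9 turned sign. Of the main values under alternatives, 284 held, 43 moved, 10 gained a call and 7 turned sign. The cause of the changes below was not tested.

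The ENZ minus DNC share was -9.24 points with at least 500 genes (exact p = 0.0498), 1.97 under 60% of the library median and -16.5 to -8.48 with 1 library left out. INHIB minus NONE was 0.781 under 60% of the library median. Both values under 60% of the median kept the gene minimum, which cut that window unequally between libraries. The microglial list differed by -0.0167 with narrower bands, -0.239 with at least 500 genes, 0.212 as a mean over barcodes (exact sign-flip adjusted p = 0.0482) and 0.104 to 0.189 with 1 library left out, passing without DNC-NONE replicate 1. With at least 5 microglial genes required the shares differed by -0.815 points. Haemoglobin genes differed by 0.000296 with bands relative to the library median (added after seeing the data), 0.000388 as a mean over barcodes and 0.000100 to 0.000466 with 1 library left out. Astrocyte and oligodendrocyte genes differed by 0.00041 with relative bands and -0.00136 to 0.000039 with 1 library left out. The 19-gene list differed by -0.0115 to 0.00552 with 1 library left out, turning without ENZ-NONE replicate 6, and its ENZ-NONE term was -0.119 with at least 500 genes and -0.0829 to -0.00945 with 1 library left out.

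Between the bands, 51 genes were called with narrower bands, 376 with at least 500 genes, 661 by DESeq2, and 743 to 925 with 1 library left out. The interaction called 5 genes with no count filter, 3 with at least 500 genes, 4 with microglial-list barcodes, 5 with relative bands, 23 as any difference among preparations, and 1 to 7 with 1 library left out.

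ENZ-NONE against DNC-NONE gave 22 genes by DESeq2, 66 with no filter, 21 with thinned sums and 31 to 45 with 1 library left out. Against DNC-INHIB it gave 26, 73, 24 and 26 to 49, and against ENZ-INHIB 52 with no filter and 17 to 33. DNC-NONE against DNC-INHIB gave 17 with no filter and 0 to 1. ENZ-INHIB against DNC-INHIB gave 0 by DESeq2, 43 with no filter, 5 with thinned sums, 14 with batch as a covariate and 2 to 9, and against DNC-NONE 1, 38 with no filter, 11 with batch and 2 to 14.

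ENZ-NONE and DNC-INHIB share replicate numbers, as do ENZ-INHIB and DNC-NONE. With the replicate block they gave 53 and 42 genes, against 43 and 13 in the pair alone with no block. Correlations of same-numbered libraries were -0.021 to 0.068 and those of differently numbered libraries -0.098 to 0.049. With 3 libraries a group such low values cannot by themselves settle whether the numbers mark a pairing. By the batch labels, replicate 2 of ENZ-INHIB and of DNC-NONE lay in different batches, as did replicate 5 of ENZ-NONE and of DNC-INHIB. Those same-numbered libraries were thus not made in 1 batch. The main fits used no pairing.

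Genes that turned were *S100a8* (1.92) and *S100a9* (2.24) with microglial-list barcodes, *Ctss* (-0.0392), *Apoe* (-0.38), *Psap* (-0.0025), *Ctsb* (-0.0276) and *mt-Co1* (-0.0627) with at least 500 genes, and *Ngp* (0.41) and *Ltf* (0.0053) with relative bands.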

Other observations

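The 2032 deposited barcodes with fewer than 500 UMIs, which no comparison used, had a median of 342 UMIs and a median mt- share of 2.15%. Of these, 1185 came from ENZ and 847 from DNC libraries, and 42 (2.07%) exceeded 10% mt- UMIs. Nuclear-list RNAs took 10.8% of their UMIs, actin and cytoskeleton genes 1.45%, ribosomal protein genes 1.61% and the 18 microglial genes 9.11%. Their median was 11 of the 18 microglial genes without thinning.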
